A study of Mus musculus with 6 samples.

Results

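In murine embryonic fibroblasts (MEFs), 337 of the 22188 binding sites listed for KLF3 or for either of its mutants ΔDL and DBD were assigned to solute carrier (Slc) genes. They were chosen by name alone: a peak entered if the symbol of the gene with the nearest transcription start site (TSS) began with Slc, a number, letters and a further number. The 337 peaks belong to 175 genes, and 73 of them are promoter peaks (within 1000 bp before or 100 bp after a TSS) out of 4452 promoter peaks in all. The other 264, out of 17736, comprise 146 intergenic peaks, 110 intron peaks, 4 at transcription termination sites, 3 in a 5′ UTR and 1 in a 3′ UTR. In 3 pairs of neighbouring Slc peaks the intervals share bases, so their heights are not separate measurements. All 175 symbols were found, as current or older names, in the RefSeq gene table, which lists 373 protein-coding genes with symbols of this form. A promoter peak of KLF3 was assigned to 18.8% of these, under a current or older name, and to 17.7% of all protein-coding genes.

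Solute carriers are membrane proteins that move amino acids, sugars, nucleosides, metal ions, anions and mitochondrial metabolites across the plasma membrane or the membranes of organelles, by exchange, cotransport or facilitated diffusion. Their symbols give the family first and the member last, so that Slc25 genes, for example, encode the carriers of the inner mitochondrial membrane and Slc39 genes encode zinc importers of the ZIP type. KLF3 is a zinc finger transcription factor that recognizes CACCC-like sequences, which are common at GC-rich promoters, and represses genes through the corepressor CtBP. No expression was measured in the data used here, so the values below say where the proteins were detected on chromatin, and the fibroblast identity of the cells could not be checked against marker genes.

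ChIP-seq (sequencing of the DNA fragments brought down with a tagged protein) had been done in duplicate with an antibody to the V5 tag for 3 groups, each with its inputs. All cells were Klf3-/- MEFs of the C57BL/6 strain, so none made KLF3 from its own gene. They were rescued from a retroviral vector with V5-tagged KLF3, with ΔDL-V5, in which the motif that contacts CtBP is mutated, or with DBD-V5, which keeps the zinc fingers and a putative nuclear localization signal and lacks the remainder of the protein. Each group is a stable line grown from a single clone under selection, so a construct and its clone cannot be told apart. Peaks were called on each replicate against its input, and those found in both replicates of a construct were joined into the table of 22188 peaks. A height is the number of tags in 400 bp around the peak, counted in both replicates together and scaled to 100 M tags, and differences between heights are given on the log2 scale. Because the replicates were combined, no peak has a replicate error, no test was made for a single peak, and "2-fold lower" below describes a pair of pooled libraries. The replicate lists rested on between 1.77 M and 18.1 M tags. ΔDL replicate 1 was the shallowest, and peaks at Slc genes in its list had a median of 7 tags, against 21 in KLF3 replicate 2.

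The sequences at the centre of the strongest promoter peaks show what the proteins met there. The 5 highest KLF3 promoter peaks are given with 100 bases each of the + strand of mm9, and capitals mark every match to ACACCC or ACGCCC and to CCACCC or CCGCCC on either strand. They are from chr9:21125052-21125151 (61 bases upstream of the Slc44a2 TSS at the peak centre), chr17:57199999-57200098 (Slc25a23, which also held the highest DBD peak), chr10:60215553-60215652, chr13:73901027-73901126 and chr19:8797791-8797890.
Slc44a2: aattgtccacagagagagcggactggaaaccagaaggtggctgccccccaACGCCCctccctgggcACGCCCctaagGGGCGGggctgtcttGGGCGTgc
Slc25a23: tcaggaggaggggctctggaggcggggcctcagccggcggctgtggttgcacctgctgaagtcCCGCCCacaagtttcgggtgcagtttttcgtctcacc
Slc29a3: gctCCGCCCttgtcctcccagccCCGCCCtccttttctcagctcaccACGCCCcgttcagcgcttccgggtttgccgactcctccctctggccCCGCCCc
Slc12a7: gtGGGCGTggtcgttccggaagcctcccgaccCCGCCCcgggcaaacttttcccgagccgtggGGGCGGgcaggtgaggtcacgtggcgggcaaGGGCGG
Slc3a2: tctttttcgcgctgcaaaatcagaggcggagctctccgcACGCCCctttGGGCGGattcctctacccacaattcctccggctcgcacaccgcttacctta

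Slc44a2, Slc29a3 and Slc12a7 held 4 matches each, Slc3a2 held 2 and Slc25a23 held 1. The 3 sites that follow were chosen after their values were seen, as those with the largest excess of ΔDL over KLF3 among peaks with a log2 ΔDL height of 8 or more, and are shown for contrast. They are from chr2:132018738-132018837 (intergenic, nearest to Slc23a2), chr4:87057874-87057973 (intergenic, nearest to Slc24a2) and chr9:21157177-21157276 (intron 21 of Slc44a2).
Slc23a2: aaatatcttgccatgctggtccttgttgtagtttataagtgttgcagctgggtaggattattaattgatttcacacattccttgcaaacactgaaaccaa
Slc24a2: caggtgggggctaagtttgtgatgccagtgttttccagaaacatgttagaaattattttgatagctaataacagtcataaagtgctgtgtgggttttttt
Slc44a2: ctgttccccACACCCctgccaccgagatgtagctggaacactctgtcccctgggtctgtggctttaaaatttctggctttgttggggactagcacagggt

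The first and second of these hold no match and the Slc44a2 intron holds 1. Over all promoter peaks at Slc genes, 64 of 73 (87.7%) had a match in the central 100 bp, against 83.1% of all promoter peaks. Of the other peaks at Slc genes, 38.3% had a match, against 29.4% of all other peaks. The median G+C content was 64.6% at the Slc promoter peaks and 43.6% at the other Slc peaks, against 63.3% and 42.1% over all peaks of each kind. A match describes the letters in the window and does not show that a protein sat on it.

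The first question was where in the Slc genes each protein was found in each replicate. The KLF3 lists had 81 and 121 promoter peaks at Slc genes, the ΔDL lists 16 and 71, and the DBD lists 2 and 3. Every KLF3 list thus held more Slc promoter peaks than every ΔDL list, and every ΔDL list more than every DBD list. The means were 101 ± 28.3 for KLF3, 43.5 ± 38.9 for ΔDL and 2.50 ± 0.707 for DBD (SD, n = 2 each). Peaks away from promoters followed another order, with 322 and 253 in the KLF3 lists, 220 and 405 in the ΔDL lists and 122 and 106 in the DBD lists, so that KLF3 and ΔDL overlapped. Promoter peaks made up 20.1% and 32.4% of the Slc peaks of the KLF3 replicates, 6.78% and 14.9% of those of ΔDL, and 1.61% and 2.75% of those of DBD. In the same lists 20.03% and 30.98%, 7.37% and 15.9%, and 1.59% and 2.80% of all peaks lay at promoters, so the Slc genes followed the lists as a whole. The 3 pairwise differences in number (57.5, 98.5 and 41 peaks) and in share (15.4, 24.04 and 8.67 percentage points) each gave an exact permutation p = 0.333, two-sided, raw and adjusted over the 3 pairs, the smallest p that 2 lists against 2 allow.

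**Figure D1:**
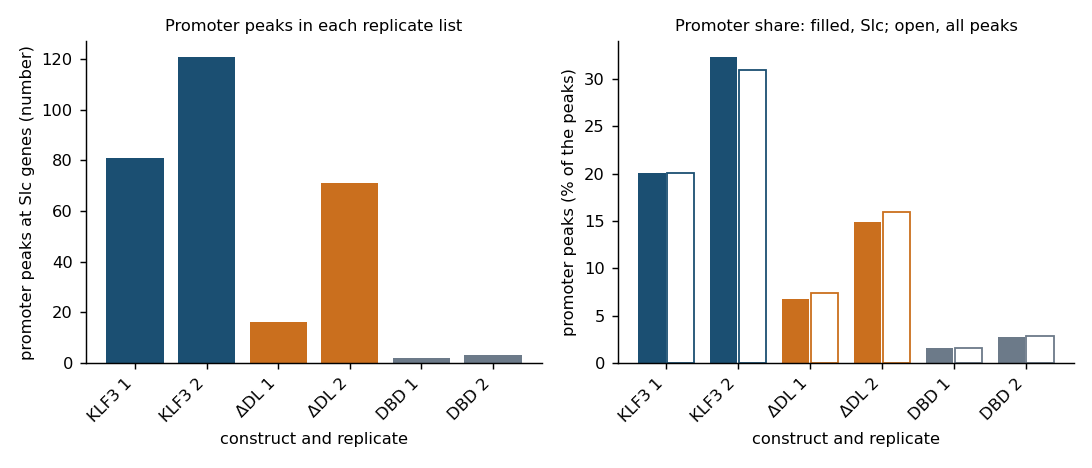
Left, number of promoter peaks at Slc genes in each replicate list (y axis) by construct and replicate (x axis). Right, promoter peaks as a percent of the Slc peaks (filled bars) and of all peaks (open bars) of each list. KLF3 lists held 81 and 121 Slc promoter peaks, ΔDL lists 16 and 71 and DBD lists 2 and 3, and each filled bar lies close to its open neighbour.

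At Slc promoters KLF3 was the construct that was listed nearly throughout, and the mutants seldom were. Of the 73 promoter peaks, 61 were listed for KLF3 alone, 10 for KLF3 and ΔDL, 1 for all 3 (Slc25a23) and 1 for ΔDL alone (Slc5a11, a sodium-coupled myo-inositol transporter). Shares of 83.6% for KLF3 alone, 13.7% for KLF3 and ΔDL and 1.37% for all 3 stood beside 76.8%, 17.9% and 0.876% of all promoter peaks. Listing requires a call in both replicates, and a call depends on depth. Of the 72 peaks listed for KLF3, 11 overlapped a peak of the shallow ΔDL replicate 1 and 50 overlapped a peak of ΔDL replicate 2, whereas DBD replicates 1 and 2 had calls at 2 and 3 of them. These are 15.3%, 69.4%, 2.78% and 4.17%, beside 22.2%, 72.5%, 2.18% and 3.45% of all promoter peaks listed for KLF3. Of the 61 that were listed for KLF3 and not for ΔDL, 39 (63.9%) were nevertheless called in ΔDL replicate 2, and 0 of 61 were in ΔDL replicate 1, where 65.8% and 3.30% of all such promoter peaks were. Absence from the ΔDL list is therefore not a measurement of absent binding at these genes.

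Heights were given for every construct at every peak of the table, whether or not that construct was called there. The peaks themselves entered through the calls, 61 of the 73 through KLF3 alone, so KLF3 had to be high at these and the differences below are not free of that choice. The median height at the 73 Slc promoter peaks was 309 normalized tags in KLF3, 190 in ΔDL and 46.2 in DBD, against 320, 197 and 42.5 over all promoter peaks. ΔDL minus KLF3 had a median of −0.63 on the log2 scale at Slc promoters (quartiles −1.33 and −0.29) and −0.68 over all promoters. DBD minus KLF3 had a median of −2.74 (quartiles −3.51 and −2.13), against −2.99. ΔDL was below KLF3 by at least 2-fold at 29 of the 73 Slc promoter peaks (39.7%), where 33.7% of all promoter peaks were, and at least 2-fold higher at 1 (Slc5a11, 1.37%), where 0.854% were. DBD was at least 2-fold lower at 70 (95.9%), where 97.3% of all promoter peaks were, and at least 2-fold higher at none, as for 0% of all promoter peaks. The 3 promoter peaks outside the DBD count, named after their values were seen, were at Slc35b1 (log2 difference −0.73), at −423 bp from Slc22a5 (−0.74) and at Slc5a11 (0.27). Both differences use the same KLF3 values, so they are not independent of each other.

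The level of ΔDL as a whole depends on the scaling. When ΔDL and DBD were shifted so that the 2334 peaks listed for all 3 constructs had the same median height, ΔDL moved by −1.06 and DBD by −0.42 on the log2 scale. The median of ΔDL minus KLF3 at Slc promoters became −1.69, with 64 of 73 peaks (87.7%) at least 2-fold lower, where 85.6% of all promoter peaks were, and 0 at least 2-fold higher, as for 0% of all promoter peaks. The direction at promoters was the same under both scalings, and the number past 2-fold was not. Of the 2334 peaks that set the shift, 2295 lie outside promoters and 39 at promoters.

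**Figure D2:**
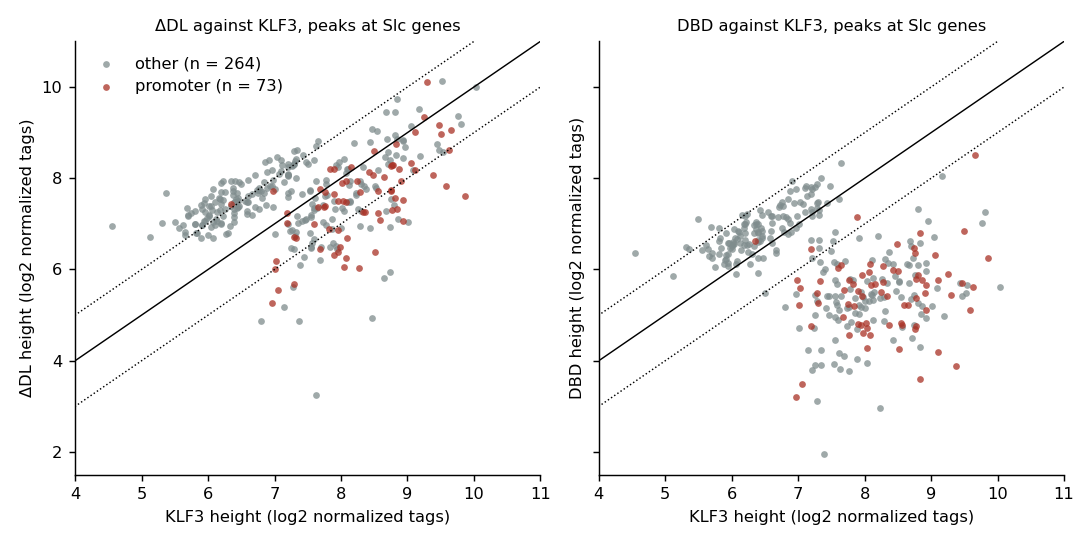
Height of ΔDL (left) and DBD (right) against the KLF3 height at the 337 peaks of Slc genes, as deposited, in log2 normalized tags on both axes, with promoter peaks in red and other peaks in grey. The solid line marks equal heights and the dotted lines a 2-fold difference: DBD lies below the lower dotted line at 70 of 73 promoter peaks, while other peaks fall into a group near the solid line and a group far below it. Scaling to the peaks listed for all 3 would move every point down by 1.06 for ΔDL and by 0.42 for DBD.

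The highest KLF3 promoter peaks of Slc genes differed widely in what the mutants kept. At Slc44a2, a choline transporter-like protein, KLF3 had 929 normalized tags, ΔDL 194 and DBD 76.6. It rested on 56 and 106 tags in the 2 KLF3 lists and on 14 in the list of ΔDL replicate 2, was not called in ΔDL replicate 1, and its ΔDL difference of −2.26 was the lowest of all Slc promoter peaks. Slc25a23, a mitochondrial ATP-Mg/phosphate carrier, had 809 tags in KLF3, 534 in ΔDL and 365 in DBD. All 6 lists held it (KLF3, 42 and 113 tags, ΔDL, 5 and 39, DBD, 19 and 28), and no other Slc promoter peak was listed for DBD. Its DBD height was the highest of any Slc peak, although its log2 difference from KLF3 was still −1.15.

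Slc29a3, a nucleoside transporter of lysosomes, had 792 tags in KLF3, 396 in ΔDL and 48.8 in DBD. The potassium-chloride cotransporter gene Slc12a7 had 765, 229 and 34.5 tags. Slc25a29, a mitochondrial carrier of basic amino acids, had 666, 269 and 14.8 tags, and its DBD difference of −5.49 was the lowest at any Slc promoter peak. These genes share a ΔDL height between those of KLF3 and DBD. Naming peaks by their KLF3 height favours lower heights in the mutants.

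Slc25a25, a close relative of Slc25a23, went the other way in ΔDL. Its peak at −521 bp had 630 tags in KLF3, 1097 in ΔDL and 43.4 in DBD, and rested on 26 and 86 tags in the KLF3 lists and 16 and 64 in those of ΔDL. The excess of ΔDL of 0.80 became −0.26 after scaling. A further Slc25a25 promoter peak had 437 tags in KLF3 and 313 in ΔDL, so the sites of 1 gene differed in sign as deposited.

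The largest deficits of ΔDL at promoters with a log2 KLF3 height of 8 or more were, after Slc44a2, at genes for plasma membrane transporters. The nucleoside transporter gene Slc29a1 had 309 tags in KLF3 and 65.3 in ΔDL, and a further promoter peak of the same gene had 269 and 76.6. Slc4a11, of the bicarbonate transporter family, had 365 and 83.3 tags. The cationic amino acid transporter genes Slc7a2 and Slc7a1 had 263 and 66.7, and 488 and 134 tags. None of these 5 peaks was called in a ΔDL or DBD replicate, and all were called in both KLF3 replicates, with 10 to 21 tags in replicate 1 and 32 to 50 in replicate 2. Their ΔDL differences lay between −2.24 and −1.81 as deposited and between −3.30 and −2.87 after scaling.

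**Figure D3:**
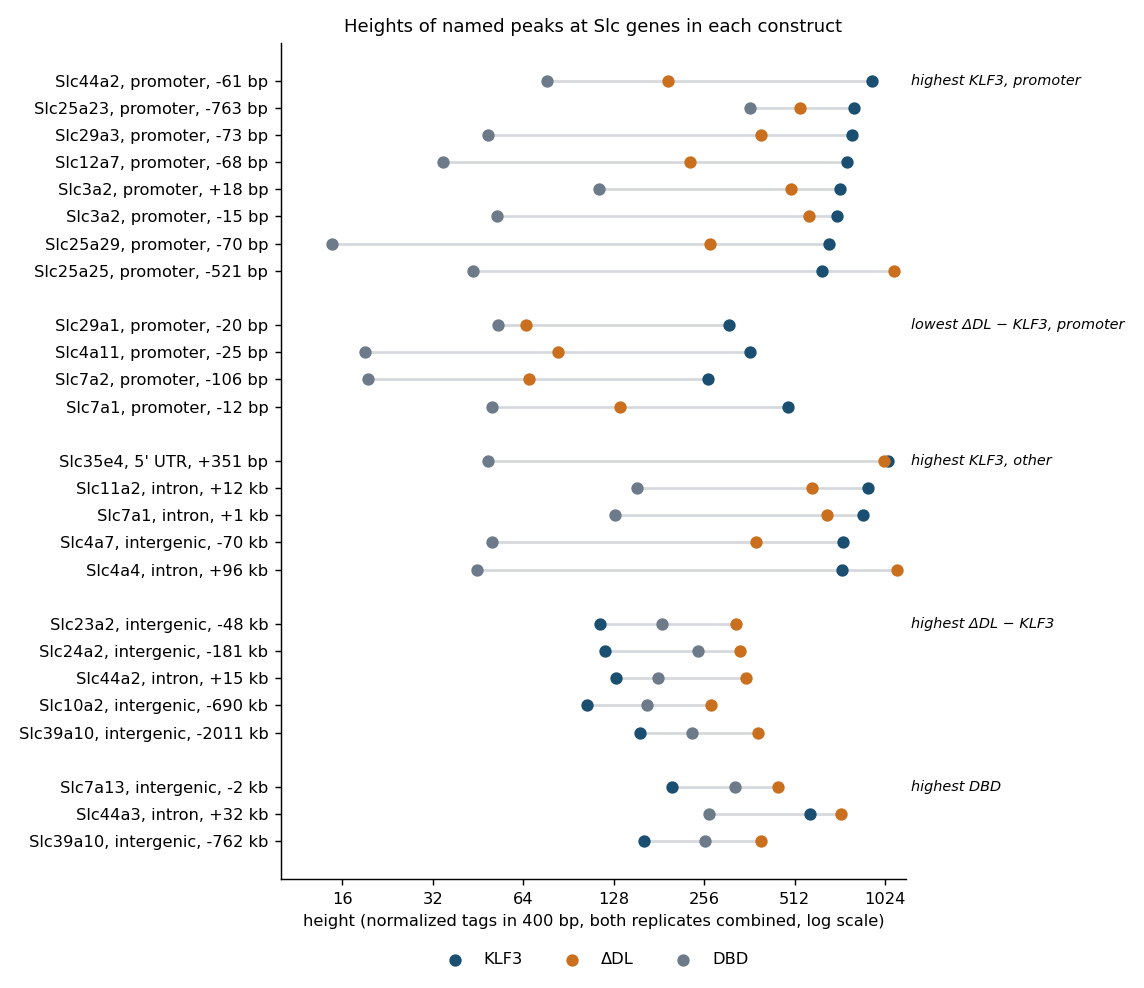
Height in normalized tags (x axis, log scale) of KLF3, ΔDL and DBD at named Slc peaks (rows, with position relative to the TSS), grouped by the reason for naming them. At the promoter peaks DBD is the lowest point in every row and ΔDL lies between, apart from Slc25a25, where ΔDL as deposited is the highest with 1097 tags. In the 5 rows of highest ΔDL − KLF3, KLF3 is the lowest point, which scaling reduces to differences of 0.25 to 0.44 for ΔDL.

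A promoter peak is assigned to the nearest TSS, and at 6 of the 73 the annotated transcript belonged to a neighbouring gene that shares the region. These were the peaks of Slc3a2 at Snhg1, Slc9a5 at Fhod1, Slc25a40 at Dbf4, Slc35a5 at Atg3, Slc25a27 at Cyp39a1 and Slc39a7 at Rxrb. Their KLF3 heights were between 217 and 724 tags, and the data do not tell which of the neighbours the site belongs to. Slc9a3r1 and Slc4a1ap, which passed the naming rule with 1 and 2 peaks, encode proteins that bind carriers and are not carriers. A further 7 promoter peaks were annotated to a transcript now named as a solute carrier but carried the symbol of another gene, among them Mcart1, the former name of Slc25a51, with 484 tags in KLF3, 605 in ΔDL and 388 in DBD. They are outside the rule and enter no count.

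Away from promoters the Slc peaks split by construct in another way. Of the 264, 96 were listed for KLF3 alone, 71 for ΔDL alone, 39 for all 3, 31 for KLF3 and ΔDL, 20 for ΔDL and DBD, 6 for DBD alone and 1 for KLF3 and DBD. The leading shares of 36.4%, 26.9%, 14.8% and 11.7% stood beside 33.8%, 30.1%, 12.9% and 8.51% of all other peaks. The median heights were 152 normalized tags in KLF3, 182 in ΔDL and 82.1 in DBD. ΔDL minus KLF3 had a median of 0.66 (0.77 over all other peaks) as deposited and of −0.40 (−0.29) after scaling, so its direction turned with the scaling. DBD minus KLF3 had a median of −0.23 (0.03 over all other peaks) as deposited and of −0.65 (−0.39) after scaling. Over the Slc peaks listed for KLF3 or for DBD its median was −2.06. Of the 264, 167 were listed for KLF3, so this choice favours a high KLF3 height and a low difference. The same median was not taken over all other peaks.

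As deposited, ΔDL was at least 2-fold higher than KLF3 at 87 of the 264 (33.0%), where 35.9% of all other peaks were, and at least 2-fold lower at 28 (10.6%), where 10.2% were. After scaling it was at least 2-fold higher at 2 (0.758%), where 0.496% of all other peaks were, and at least 2-fold lower at 97 (36.7%), where 32.3% were. The 2 peaks, named after their values were seen, lie in intron 6 of Slc4a4 and at −186 kb from Slc7a11, with KLF3 heights of 41.1 and 23.4 tags. DBD was at least 2-fold lower at 123 (46.6%), where 41.3% were, and at least 2-fold higher at 8 (3.03%), where 4.09% were. These shares were each within 6 percentage points of those over all other peaks, and the Slc peaks were not tested against them.

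The strongest KLF3 peaks outside promoters were as high as those at promoters, and ΔDL was within 2-fold of KLF3 at the 5 highest as deposited, but at 1 of them after scaling. Slc35e4, an orphan gene of the nucleotide sugar transporter family, had a peak in its 5′ UTR with 1046 tags in KLF3, 1017 in ΔDL and 48.8 in DBD, the highest KLF3 height at any Slc gene. The iron transporter gene Slc11a2 had 898, 584 and 153 tags in intron 2. The sodium bicarbonate cotransporter genes Slc4a7 (intergenic, 69.8 kb away) and Slc4a4 (intron 3) had 744 and 734 tags in KLF3, 380 and 1121 in ΔDL, and 50.2 and 44.9 in DBD. At all of these and at the Slc7a1 intron peak described next, DBD was more than 2-fold lower than KLF3. These 5 peaks were named for their KLF3 heights, which favours lower heights in the mutants. Of all other peaks, DBD was at least 2-fold lower at 41.3%, and ΔDL at 10.2% as deposited and 32.3% after scaling.

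Slc7a1 shows a promoter and an intron peak side by side. Its promoter peak at −12 bp had 488 tags in KLF3 and 134 in ΔDL, whereas the peak in intron 1, at +1290 bp, had 867 in KLF3, 657 in ΔDL and 129 in DBD. All 6 lists held the intron peak (KLF3, 58 and 97 tags, ΔDL, 10 and 47, DBD, 9 and 8). The KLF3 lists alone held the promoter peak (21 and 50 tags). Over the 31 Slc genes with both kinds of peak, the median ΔDL difference was lower at the promoter than at the other peaks in 24, and the median DBD difference in 23. The medians over these genes were −0.63 at promoters and −0.16 at other peaks for ΔDL, and −2.92 and −2.30 for DBD. The scaling shifts both kinds alike and leaves such within-gene comparisons unchanged. Of the Slc promoter peaks 98.6% were listed for KLF3, against 63.3% of the other Slc peaks, so entry through the calls favours this order. The same count was not made over all genes with both kinds of peak.

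Distance from the TSS ordered the Slc peaks outside promoters. The 13 peaks within 1 kb had a median KLF3 height of 315 tags, the 41 at 1 to 10 kb 197, the 147 at 10 to 100 kb 156, and the 63 farther away 95.7. ΔDL medians stayed between 162 and 189 tags in all 4 classes, and DBD medians went from 43.4 tags within 1 kb to 107 beyond 100 kb. ΔDL minus KLF3 was −0.84, −0.23, 0.61 and 1.01 in this order as deposited, and −1.90, −1.29, −0.45 and −0.05 after scaling. DBD minus KLF3 was −2.49, −2.26, −0.95 and 0.41 as deposited. Over all other peaks the same order was found, with −0.78, 0.14, 0.70 and 1.01 for ΔDL. Of the Slc peaks 100%, 75.6%, 66.7% and 39.7% were listed for KLF3, from the nearest class to the farthest. Near peaks thus entered more often through a KLF3 call, which favours this order of KLF3 heights and of both differences. How much of the order comes from such entry was not tested. G+C content was lower at greater distance, from a median of 60.3% within 1 kb to 36.2% beyond 100 kb, and its part in the result was not tested. The Slc peaks held fewer distant sites than the table as a whole, with 23.9% beyond 100 kb against 31.7%.

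**Figure D4:**
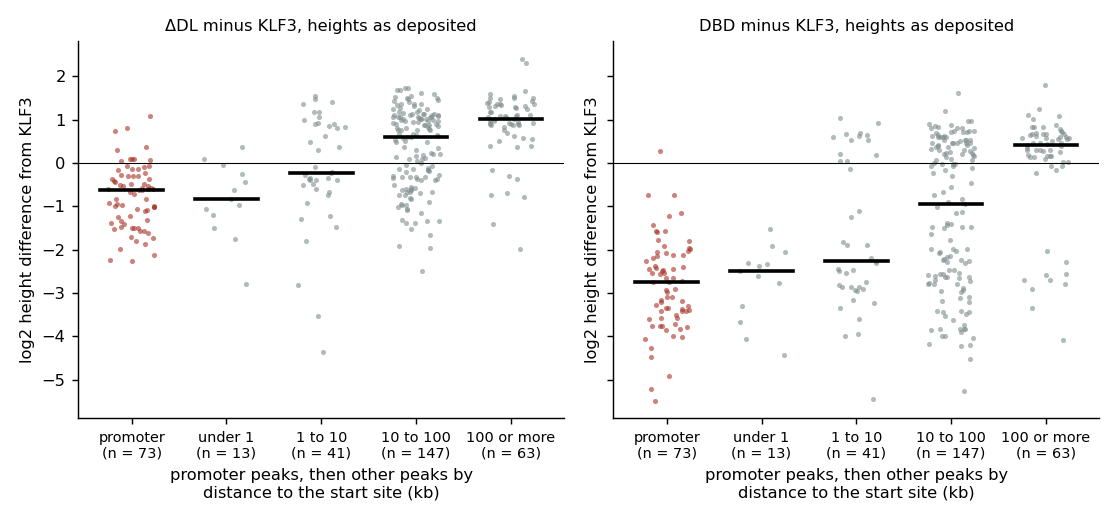
Log2 height difference from KLF3 (y axis, heights as deposited) of ΔDL (left) and DBD (right) at promoter peaks of Slc genes (red) and at their other peaks by distance to the TSS in kb (grey, x axis), with the median of each class as a bar. The ΔDL medians run from −0.84 within 1 kb to 1.01 beyond 100 kb, and scaling would lower every ΔDL point by 1.06 and so place the last at −0.05. DBD points fall into a group above and a group well below 0.

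A CACCC-like match and a KLF3 listing went together at the other Slc peaks. Of the 167 listed for KLF3, 55.7% had a match, and of the 97 listed for either mutant or both without KLF3, 8.25% had. Over all other peaks these shares were 45.95% and 8.69%, so the same held for the table as a whole. The 101 peaks with a match had median heights of 251 tags in KLF3, 221 in ΔDL and 47.5 in DBD, and the 163 without a match had 97.0, 171 and 97.0. The median of DBD minus KLF3 was −2.50 with a match and 0.31 without. That of ΔDL minus KLF3 was −0.32 and 0.97 as deposited, or −1.38 and −0.09 after scaling. Of the 101 peaks with a match, 93 were listed for KLF3, so these differences are not free of how the peaks entered. They were not set beside those over all other peaks. The peaks without a match had a median G+C content of 40.4%, against 48.9% with one, so letters and base composition moved together.

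The peaks named for the largest excess of ΔDL over KLF3 lay away from promoters. That choice itself favours low KLF3 heights and, as 72 of the 73 Slc promoter peaks were listed for KLF3, sites outside promoters. The site nearest Slc23a2, a vitamin C transporter gene, had 115 tags in KLF3, 326 in ΔDL and 186 in DBD. The site nearest Slc24a2, a potassium-dependent sodium-calcium exchanger gene, had 120, 338 and 244 tags. Both were called in all 6 lists, with 8 to 14 tags in the KLF3 replicates, 7 to 24 in those of ΔDL and 15 to 20 in those of DBD. The peak in the last intron of Slc44a2 had 131, 352 and 180 tags, the reverse order of KLF3 and ΔDL to the promoter of the same gene. After scaling, the excess of ΔDL at these sites was 0.37 to 0.44, so the size rests largely on the scaling. These sites are listed for every construct, and the scaling makes median heights equal over such peaks, which favours a small excess there.

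The highest DBD heights after Slc25a23 were at 4 peaks outside promoters. Slc7a13, an amino acid transporter gene known from kidney, had 324 tags in DBD, 201 in KLF3 and 452 in ΔDL, at −1802 bp. Slc44a3, in intron 9, had 265 tags in DBD, 576 in KLF3 and 729 in ΔDL. A site 762 kb from Slc39a10 and the Slc24a2 site had 258 and 244 tags in DBD. All 4 were called in both DBD replicates, with 12 to 34 tags.

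The families with most peaks were Slc25 with 46 peaks at 29 genes, Slc39 with 22, Slc35 with 21 and Slc7 with 17. Slc4, Slc22 and Slc38 had 14 each. These numbers were not set against the number of genes in each family. Slc25, the mitochondrial carriers, had 18 promoter peaks, more than any other family, with a median KLF3 height of 360 tags against 309 over the Slc promoter peaks. Its median ΔDL difference at promoters was −0.35, and 2 of the 18 were at least 2-fold lower as deposited, at Slc25a29 and Slc25a39, where 33.7% of all promoter peaks were. After scaling the median was −1.41 and 14 of the 18 (77.8%) were at least 2-fold lower, where 85.6% of all promoter peaks were. DBD was at least 2-fold lower at all 18, where 97.3% of all promoter peaks were. Its highest other peak, in intron 1 of the mitochondrial glycine carrier gene Slc25a38, had 709 tags in KLF3, 396 in ΔDL and 42.8 in DBD.

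**Figure D5:**
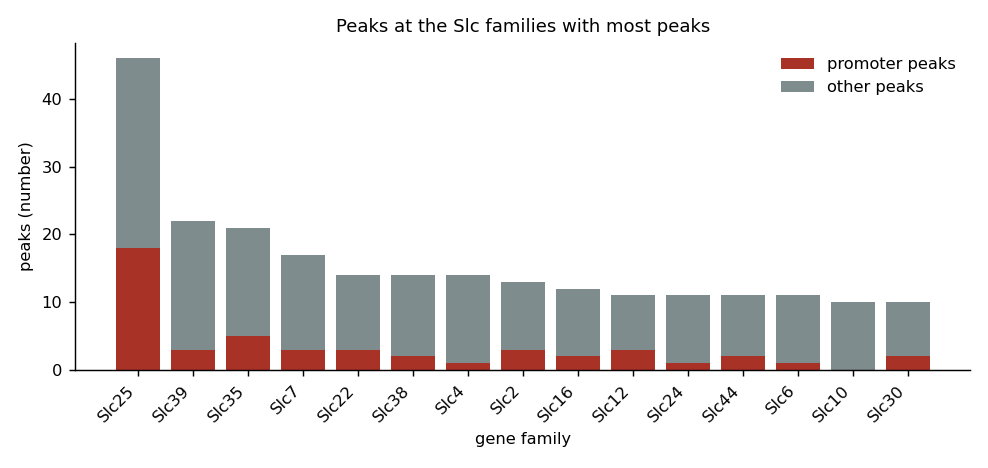
Number of peaks (y axis) at the 15 Slc families with most peaks (x axis), as promoter peaks (red) and other peaks stacked above them (grey). Slc25 has 18 promoter and 28 other peaks, and Slc39, next in number, has 3 and 19.

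Zinc transporter genes of both directions, Slc39 (import into the cytosol) and Slc30 (removal from it), had 32 peaks, of which 5 were at promoters. As deposited, ΔDL was at least 2-fold lower at 3 of the 5 promoter peaks (33.7% of all promoter peaks), and after scaling at all 5 (85.6%). Among the 3 was Slc39a13, with 385 tags in KLF3, 135 in ΔDL and 37.5 in DBD. At their 27 other peaks ΔDL was at least 2-fold higher at 15 as deposited (35.9% of all other peaks) and at 0 after scaling (0.496%). Of the 15, 8 are assigned to a single gene, Slc39a10. Of the 22 Slc39 peaks, 11 are assigned to Slc39a10, a plasma membrane zinc importer. None of these is at its promoter, and they lie between 62.3 kb and 2011 kb away with a median of 954 kb. Their median G+C content was 31.2%, their KLF3 heights ran from 60.1 to 179 tags, and ΔDL exceeded KLF3 at all 11 as deposited, with a median of 1.14. After scaling it did so at 6 of the 11, with a median of 0.08. All 11 were listed for ΔDL and 4 of them for KLF3, so entry through the calls favours a high ΔDL. Over all other peaks beyond 100 kb the median was 1.01 as deposited and −0.05 after scaling. Distances as large as those of Slc39a10 give the nearest gene and no more.

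The other genes with many peaks also had them at a distance. Slc10a2, a bile acid transporter gene of the ileum, had 9 peaks at 92.3 to 1676 kb, Slc8a1, a sodium-calcium exchanger gene, had 7 at 174 to 550 kb, and Slc14a2, a urea transporter gene, had 7 at 13.3 to 208 kb. All peaks of Slc10a2 were intergenic, while 2 of those of Slc8a1 and 6 of those of Slc14a2 lay in introns. An intron here is that of the annotated transcript, which need not belong to the nearest gene. For Slc14a2 the annotated transcripts had 11, 7 or 5 introns, the last at the peak 208 kb upstream. Neither Slc39a10 nor these genes had a promoter peak, and 34 of the 337 peaks are assigned to the 4. KLF3 was listed at 3 of the peaks of Slc10a2, 2 of those of Slc8a1 and 4 of those of Slc14a2. The others entered through the mutants alone, which favours a low KLF3 height. The median ΔDL differences of Slc10a2, Slc8a1 and Slc14a2 were 1.18, 1.10 and 0.98 as deposited and 0.12, 0.04 and −0.08 after scaling, and the median KLF3 heights 105, 73.5 and 109 tags. When 1 peak per gene was taken, the one of greatest KLF3 height, the median of ΔDL minus KLF3 at other peaks was 0.30 in place of 0.66, and that of DBD minus KLF3 was −2.06 in place of −0.23. That choice favours KLF3 by construction, so the shift is not a measure of the genes with many peaks alone.

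Promoters of the remaining families were less frequent. The 5 promoter peaks of Slc35, the nucleotide sugar transporters, included Slc35e1, with 553 tags in KLF3, 516 in ΔDL and 18.3 in DBD. Slc22, the organic ion transporters, had 3, of which the highest was Slc22a15, with 252, 89.9 and 24.3 tags. ΔDL was at least 2-fold lower at all 3 promoter peaks of nucleoside transporter genes (Slc29a3 and both peaks of Slc29a1) and at both promoter peaks of folate and thiamine transporter genes (Slc19a1 and Slc19a2), as deposited. Slc29a3 lay on the limit, with a log2 difference of −1. After scaling all of these peaks were at least 2-fold lower, where 85.6% of all promoter peaks were. These groups were set by family number and were not tested against the 33.7% of all promoter peaks. Among groups with several promoter peaks, only these had all of them lower as deposited, so naming them rests on the values. Others had 4 of 7 (Slc2, Slc5 and Slc45, grouped as sugars by family number alone), 4 of 11 (amino acids) or 2 of 18 (mitochondrial carriers), for example.

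Among the 11 genes of a list of amino acid uptake genes chosen for their known roles, 8 had a peak and 6 had a promoter peak, with 24 peaks and 8 promoter peaks in all. Slc7a6, Slc38a1 and Slc43a1 had none. Of all protein-coding genes 43.4% had a peak and 17.7% a promoter peak of KLF3, and of Slc genes 48.5% and 18.8%. The list was drawn up with earlier results of these data known, so an excess over these shares cannot be read as a result. The CD98 heavy chain gene Slc3a2, whose product carries several light chain transporters to the cell surface, had promoter peaks of 724 and 709 tags in KLF3, 498 and 572 in ΔDL, and 115 and 52.3 in DBD. The gene for its light chain partner Slc7a5, which imports large neutral amino acids, had 260, 237 and 28.4 tags at its promoter. Slc38a2, a sodium-coupled neutral amino acid transporter gene, had 449, 190 and 59.3 tags. The neutral amino acid transporter genes Slc1a4 and Slc1a5 had 329 and 249 tags in KLF3, 153 and 182 in ΔDL, and 27.5 and 58.9 in DBD at their higher or sole promoter peak. ΔDL was at least 2-fold lower at 3 of the 8 promoter peaks (Slc7a1, Slc38a2 and Slc1a4) as deposited and at all 8 after scaling, where 33.7% and 85.6% of all promoter peaks were. DBD was at least 2-fold lower at all 8, where 97.3% were. The Slc3a2 peak of 724 tags, counted among the 8, is the site at Snhg1, and the data do not tell which gene it belongs to. Slc7a11, the cystine-glutamate exchanger gene, had 3 intergenic peaks and no promoter peak. All 3 were listed for ΔDL alone, with 23.4 to 83.9 tags in KLF3 and 124 to 169 in ΔDL. Such a listing favours a low KLF3 height, and they rested on 5 to 14 tags in the ΔDL replicates. After scaling, ΔDL minus KLF3 was −0.41, 0.33 and 1.35.

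Genes of other transporter classes gave values of the same kind. ATPase and ATP synthase genes (Atp) had 21 promoter peaks with a median ΔDL difference of −0.34, 5 of them at least 2-fold lower, and ATP-binding cassette genes (Abc) had 8 with a median of −0.51 and 1 at least 2-fold lower, as deposited and beside 33.7% of all promoter peaks. The organic anion transporter genes named Slco had 21 peaks at 6 genes and none at a promoter, and aquaporin genes (Aqp) had 6 and none. DBD was at least 2-fold lower at 19 of the 21 Atp and all 8 Abc promoter peaks, beside 70 of 73 at Slc genes. No difference between these classes was tested.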

How the data were processed

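ChIP-seq peak lists of V5-tagged KLF3, ΔDL and DBD in Klf3-/- MEFs were used, as 6 replicate lists, 3 lists merged per construct and a table of every peak. A GEO record stands for both replicates, which only the lists number. The members and gene lists were chosen with earlier results of these data known.

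Reads of 50 bp were mapped by the authors with Bowtie2 2.0.0 (build mm9), who called peaks with HOMER 4.1 at 5-fold enrichment and a false discovery rate of 0.001. Peak scores are a signal the authors scaled to 100 M tags. The authors' heights are the log2 of tags per 400 bp window, both replicates combined. The deposited G+C content is a fraction, and the deposited conservation score a mean of PhastCons values. For 14113 of 14115 merged KLF3 peaks the G+C content equals that of the reference genome, which sets the build.

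Replicate scores are whole multiples of 1 step, which gives the tags of a list. One tag is worth 4.29, 8.45 and 6.23 normalized tags in the KLF3, ΔDL and DBD heights. The heights are not whole multiples of these (20.6%, 19.0% and 20.4% of those below 8 lay within 0.1 of a tag, against 20% by chance), so a planned interval on the tag ratio was not computed and a call means past 2-fold. Replicate numbers of peaks were compared with exact permutation tests, which cannot go below p = 0.333 with 2 lists a group. Named peaks are the 8 highest KLF3 promoter and 5 highest other peaks, the 5 lowest and 5 highest ΔDL differences (height of at least 8), the 5 highest DBD peaks, the top peaks of 5 families, the 4 genes with most peaks and the amino acid list. The code was tested on simulated data. Scripts ran on Python 3.11.15 with pysam 0.24.0, scipy 1.17.1, pandas 2.3.3 and numpy 2.4.6.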

Additional observations from a re-analysis of the deposited data

How the results depend on the processing

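Of 180 alternative values, 144 kept their direction and size, 35 moved and 1 reversed. A median was taken as moved past 0.25 on the log2 scale, and a count past 1.5 times. The cause of these shifts was not tested unless the setting itself gives it. Scaling the heights to the same median reversed the median of ΔDL minus KLF3 at other Slc peaks, from 0.66 to −0.40. It also moved the ΔDL median at promoters to −1.69, the DBD medians to −3.16 (promoter) and −0.65 (other), the ΔDL counts at promoters to 64 lower and 0 higher and at other peaks to 97 lower and 2 higher, and the DBD count at other peaks to 2 higher. With limits of 1.5-fold and 4-fold, ΔDL was higher at 3 and 0 promoter peaks and at 139 and 2 other peaks, and lower at 54 and 5 other peaks, it was lower at 3 promoter peaks at 4-fold, and DBD was higher at 53 and 0 other peaks. Adding 16 tags gave a DBD median of −2.48 at promoters, 0 promoter and 56 other peaks higher in ΔDL, and 3 higher in DBD. With 1 peak per gene, 34 other peaks were higher in ΔDL (median 0.30) and 1 in DBD (median −2.06). Within 100 kb these were 54 (median 0.31) and 3 (median −1.52). With peaks listed for KLF3 or the mutant, 3 were higher in DBD (median −2.06), and with a height of at least 7 in either, 3 (median −2.27). Listing for KLF3 favours a high KLF3 height and so a low value of the first of these medians. In 200 bp, 97.3% of Slc and 93.4% of all promoter peaks had a match.

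With the replicate number as a block, the differences in promoter peaks stayed 57.5, 98.5 and 41 with an exact permutation p = 0.5, the smallest that 2 pairs allow. The numbers are not known to mark a shared culture, and 2 pairs do not show whether they do. Leaving out a replicate in turn gave 30 to 85 promoter peaks (share 9.25 to 21.5 percentage points) for KLF3 minus ΔDL, 78.5 to 118.5 (17.9 to 30.2) for KLF3 minus DBD and 13.5 to 68.5 (4.60 to 12.7) for ΔDL minus DBD. For KLF3 minus ΔDL the extremes in number came from leaving out ΔDL replicate 1 or 2, and those in share from leaving out KLF3 replicate 2 or 1. The depth of 1.77 M tags in ΔDL replicate 1 limits what absence from the ΔDL lists can show. With equal numbers of top peaks per list, the differences were 32.5, 43 and 10.5 peaks.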
